A study of Homo sapiens with 10 samples.

Results

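The SR proteins and the heterogeneous nuclear ribonucleoproteins (hnRNPs) were taken as the rows of the deposited expression table whose symbol begins with SRSF or HNRNP, which gave 13 SRSF rows and 27 HNRNP rows, 40 of 16734 rows in all. The table comes from MIA PaCa-2, an established line of human pancreatic ductal adenocarcinoma cells, and asks how its transcripts respond to hydroxyprogesterone caproate (HPC), a synthetic progestin. The HPC group was 5 libraries of cells kept in 10 µM HPC for 24 h. The DMSO group was 5 libraries of cells that received the same volume of the solvent DMSO for 24 h. All 10 libraries share the line, which carries no engineered change in the labels, and replicates are labelled as biological without a culture day. The p-values therefore measure the spread between these libraries.

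SR proteins bind short enhancer sequences in exons through RNA recognition motifs and recruit the splicing machinery through a tail rich in arginine and serine, whose phosphorylation sets where they sit and what they bind. The hnRNPs coat nascent transcripts, and many of them act through silencer sequences against the SR proteins at competing splice sites. Many genes of both families also control their own amount by alternative exons that lead the transcript to nonsense-mediated decay, so a level of RNA per gene, which is what was measured here, does not tell productive transcripts from those that are decayed.

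Values are FPKM, in which fragments are divided by the length of the gene and the depth of the library. Whole counts could be worked out from them and came to between 65851176 and 82218527 per library. Over the tested genes, libraries correlated at Pearson r of 0.989 to 0.994 within the groups and 0.842 to 0.863 between them. Of 6 markers listed for the line, 5 were in the table and CDKN2A was not. VIM, KRT18, KRT8 and KRT19 were above 1 FPKM, and KRT7 was below it (0.177 to 0.264 FPKM in DMSO, 0.00366 to 0.0663 FPKM in HPC). These 5 summed to between 872 and 913 FPKM in DMSO and between 537 and 575 FPKM in HPC. VIM carried that fall (682 to 718 against 322 to 346 FPKM), KRT19 was lower too (22.2 to 26.6 against 8.71 to 11.2 FPKM), and KRT18 (109 to 119 against 148 to 156 FPKM) and KRT8 (50 to 53 against 55.2 to 61.4 FPKM) were higher in HPC. The acinar list (2 of 6 markers in the table) and the islet list (2 of 5) reached a sum of at most 0.498 and 0.0342 FPKM in any library. Of the leukocyte (5 of 6 in the table), fibroblast (5 of 5) and endothelial (3 of 4) markers only CD68, COL1A2 and CDH5 were above 1 FPKM, and those lists summed to between 3.44 and 4.27, 24.5 and 26.7, and 1.43 and 1.53 FPKM in DMSO against 8.44 to 11.1, 0.762 to 1.05, and 0.0152 to 0.0368 FPKM in HPC. The erythroid list (2 of 4 in the table) summed to 0.26 to 0.558 FPKM in DMSO and 0.247 to 0.368 FPKM in HPC. The part of these markers in the results was not tested. The 13 genes encoded by mitochondria held 21.9 to 23.8% of the FPKM in DMSO and 13.8 to 15.9% in HPC, and values rescaled to the sum of all other genes are given where they change a call.

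Most members of both families were lower in HPC. Of 12 SRSF rows that passed a filter of at least 1 FPKM in at least 5 libraries, 9 fell, 2 rose and 1 did not pass the test (limma on log2(FPKM + 0.1), Benjamini-Hochberg adjusted p under 0.05 over all 9150 genes tested). Of 22 HNRNP rows that passed the filter, 16 fell, 3 rose and 3 did not pass. Passing the test was no feature of these families, since 87.7% of all tested genes passed it, against 91.7% of the SRSF rows and 86.4% of the HNRNP rows. By direction, 75% of the SRSF rows and 72.7% of the HNRNP rows were lower, beside 44.8% of all tested genes, and 42.9% of all tested genes were higher. The median log2 fold change was -0.21 over the tested SRSF rows and -0.27 over the tested HNRNP rows, with -0.014 over all tested genes.

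The falls were mostly moderate. A fall of at least 1.5-fold was called for 4 SRSF rows (33.3%) and 3 HNRNP rows (13.6%), against 20.3% of all tested genes. The 5 HPC values lay wholly outside the 5 DMSO values for 8 of 12 SRSF rows and 16 of 22 HNRNP rows, or 66.7% and 72.7%, while this held for 79.6% of all tested genes. When libraries were rescaled to the sum of the non-mitochondrial genes, the median of all genes shifted by -0.17 to -0.19, 63.4% instead of 51.1% of all calls were lower, and the families had 10 SRSF rows lower and 1 higher and 20 HNRNP rows lower and 1 higher. In bulk RNA, less transcript per cell cannot be told apart from fewer cells that hold it.

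**Figure D1:**
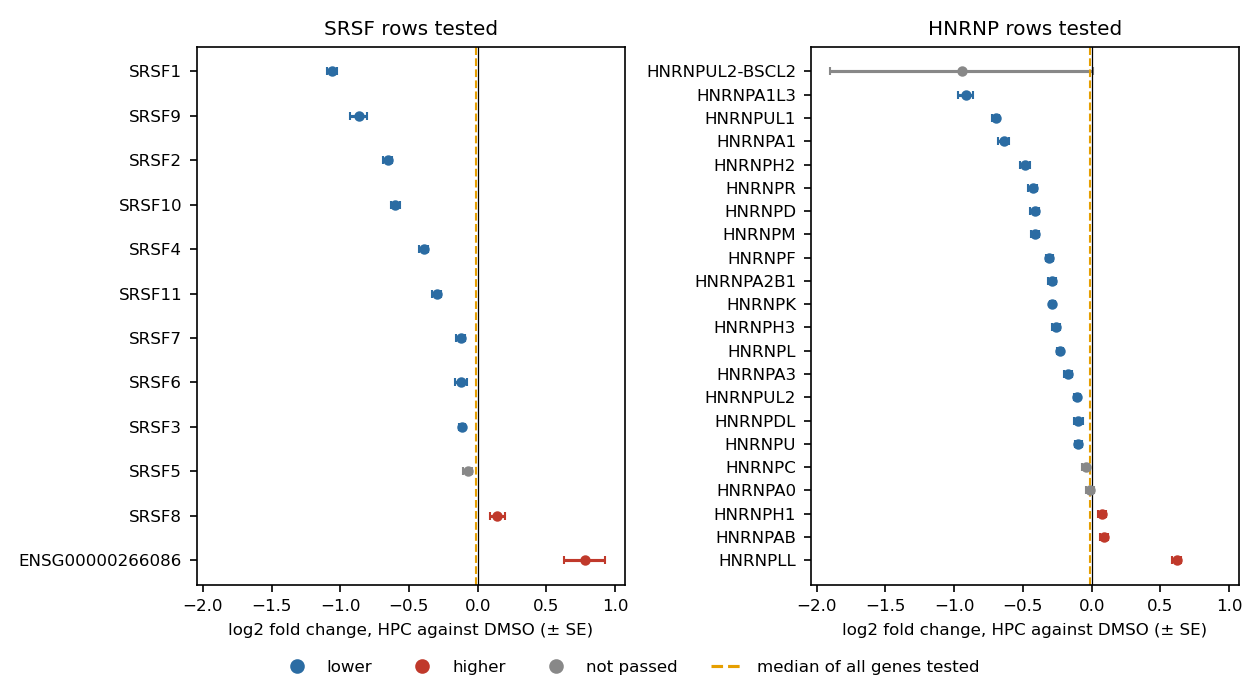
Log2 fold change of each tested row, HPC against DMSO, with its standard error (horizontal axis), for the SRSF rows on the left and the HNRNP rows on the right. Points are coloured by call and the dashed line is the median of all tested genes at -0.014; SRSF1 at -1.06 is the lowest called row and ENSG00000266086 at 0.78 and HNRNPLL at 0.62 are the highest.

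As a share of the whole library, SRSF rows held 0.214, 0.208, 0.206, 0.204 and 0.205% of the recovered counts in DMSO replicates 1 to 5 and 0.159, 0.159, 0.159, 0.156 and 0.156% in HPC replicates 1 to 5. HNRNP rows held 0.981, 0.953, 0.962, 0.958 and 0.959% in DMSO and 0.799, 0.798, 0.811, 0.823 and 0.797% in HPC. Neither family's HPC libraries overlapped its DMSO libraries. The means were 0.207% ± 0.00413 against 0.158% ± 0.00164 for SRSF and 0.963% ± 0.0108 against 0.806% ± 0.0116 for HNRNP (SD, n = 5 each). By FPKM the shares were 0.128% ± 0.00253 and 0.099% ± 0.00241 for SRSF, and 0.434% ± 0.00599 and 0.344% ± 0.00432 for HNRNP.

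The make-up of each family shifted as well. SRSF1 gave 16.5% ± 0.493 of all SRSF counts in DMSO and 10.4% ± 0.501 in HPC, while SRSF3 went from 17.6% ± 0.298 to 21.3% ± 0.238 (SD, n = 5 each). Among the hnRNPs, HNRNPA1 gave 16.0% ± 0.248 of the family's counts in DMSO and 12.3% ± 0.696 in HPC. HNRNPU, a large protein that also binds chromatin, went from 10.9% ± 0.195 to 12.2% ± 0.0992. With HPC, HNRNPU thus held about as much of the family's counts as HNRNPA1, the largest contributor in DMSO.

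Promoters were read to see what letters these genes share upstream. RefSeq promoters (GRCh38.p14, 250 bases before to 50 bases after the annotated start) were matched by symbol for 35 of 40 members. The letters CCAAT, the core of the site bound by the factor NF-Y, were searched on both strands. They stood in the promoters of 18 of 20 tested HNRNP genes (90.0%), against 2 of 10 tested SRSF genes (20.0%) and 43.0% of 7513 tested genes with a promoter. HNRNPUL2 and the read-through HNRNPUL2-BSCL2 have overlapping promoters and were counted as 2 genes. The same match lies in both, in a stretch that ends 28 and 101 bases before their starts. The match was in 12 of 14 HNRNP genes that fell, in 3 of 3 that rose and in 3 of 3 that did not pass, numbers too small and too near saturation to relate it to direction. The stretches below are shown because they carry this match in members that fell (HNRNPK, HNRNPR, HNRNPF, HNRNPH2 and SRSF3), rose (HNRNPLL, HNRNPAB and SRSF8) or did not pass (HNRNPC). Each is 30 bases on the gene's own strand, lies before a RefSeq start and outside GENCODE 29 exons, and has CCAAT or its reverse complement ATTGG in capitals.
HNRNPK: cgtggcctcgggCCAATcgcttcgccctcg
HNRNPR: gcagcttcatcgATTGGctctcgagtcgtc
HNRNPF: caggcgctgaggATTGGggccggcagcgcg
HNRNPH2: acgttccgctaaCCAATcaccctcttcctt
HNRNPLL: ttcccgcccctgCCAATagggagcagaacc
HNRNPAB: ggacttgagcagCCAATgagtgtgcagttt
HNRNPC: ctgctaattgtgATTGGatatcattgtgag
SRSF3: gggggagcccgtCCAATcatgtgattccag
SRSF8: tttgttcttaagATTGGtttaaaacgtaga

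These stretches are HNRNPK at chr9:83980297-83980326 (minus strand), HNRNPR at chr1:23344455-23344484 (minus), HNRNPF at chr10:43408915-43408944 (minus), HNRNPH2 at chrX:101408069-101408098 (plus) and HNRNPLL at chr2:38603072-38603101 (minus). The others are HNRNPAB at chr5:178204446-178204475 (plus), HNRNPC at chr14:21269544-21269573 (minus), SRSF3 at chr6:36594295-36594324 (plus) and SRSF8 at chr11:95066832-95066861 (plus). Some of them, such as those of HNRNPK, HNRNPF and HNRNPLL, lie inside the GENCODE gene, downstream of its outermost start. The tested HNRNP genes had 1.55 promoters each in the table, against 1.3 for SRSF genes and 1.41 for all tested genes, and a gene counted once if any of its promoters matched.

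The E-box CACGTG, a sequence bound by MYC, MAX and USF proteins among others, was in 7 of 20 tested HNRNP genes (35%) and 0 of 10 tested SRSF genes, beside 13.1% of tested genes. All 7 holders (HNRNPA3, HNRNPD, HNRNPDL, HNRNPH2, HNRNPH3, HNRNPM and HNRNPUL1) were among the 14 searched genes that fell, and 7 of those 14 lacked it. Only 3 searched HNRNP genes rose and 3 did not pass, too few to relate the E-box to direction. The E-box is shown, in capitals, for a pair whose match lies before a RefSeq start and outside GENCODE 29 exons. The pair is HNRNPD at chr4:82374001-82374030 (minus strand) and HNRNPH2 at chrX:101408168-101408197 (plus).
HNRNPD: gcgctctcgcgtCACGTGaccgggacgcgc
HNRNPH2: ccgagagttgctCACGTGaccgagatctca

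The other motifs are given beside their share of all tested genes, and no difference was tested. The cyclic AMP response element TGACGTCA and the composite site TGATGCAA of ATF4 and C/EBP were in 0 of 30 tested members searched, beside 4.02% and 0.626% of tested genes. The SP1 letters GGGCGGG were in 75% of HNRNP, 30% of SRSF and 63.5% of tested genes. The ETS letters CCGGAAG were in 15%, 20.0% and 25.1%, the E2F letters GCGGGAAA in 10.0%, 10.0% and 3.67%, and the NRF1 core GCATGCGC in 5.0%, 20.0% and 7.11%, in the same order.

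SRSF1, the founding SR protein, which promotes the use of nearby 5′ splice sites, fell most. SRSF1 (ENSG00000136450, chr17:58003360-58007346, minus strand, GENCODE 29 on GRCh38) stood at 23.8, 21.4, 21.9, 22.1 and 22.1 FPKM in DMSO replicates 1 to 5 and at 10.1, 10.8, 11.5, 10.2 and 10.5 FPKM in HPC replicates 1 to 5. Every HPC library was below every DMSO library. The mean went from 22.3 ± 0.933 to 10.6 ± 0.568 FPKM (SD, n = 5), 2.09-fold lower, with a log2 fold change of -1.06 (SE 0.04, adjusted p = 1.67e-11).

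A second row with the symbol SRSF1 moved the other way. ENSG00000266086 (chr17:57989038-58007246, minus strand) is named AC015813.2 in GENCODE 29, where its transcript is a read-through classed under nonsense-mediated decay, and 83.3% of its exon bases are shared with SRSF1. It stood at 3.18, 3.87, 3.44, 2.59 and 2.08 FPKM in DMSO and at 5.39, 4.54, 5.52, 5.44 and 5.0 FPKM in HPC. The groups did not overlap and the row rose 1.72-fold (log2 0.78, SE 0.15, adjusted p = 6.22e-04). Its counts were small, 338 to 644 in DMSO and 705 to 933 in HPC, beside 24131 to 27770 and 10357 to 13208 for SRSF1. Of the counts of both rows, the read-through row held 1.97% ± 0.48 in DMSO and 6.71% ± 0.611 in HPC (SD, n = 5). The shared bases are also 56.6% of the exon bases of SRSF1. How the counting assigned reads from the shared exons is not given in the sources used here, so the level of either row is uncertain.

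SRSF9, a protein with the same layout of domains as SRSF1, fell next. It stood at 21.9, 23.5, 19.2, 19.1 and 18.4 FPKM in DMSO and at 11.8, 10.7, 10.7, 11.4 and 11 FPKM in HPC, without overlap. The fall was 1.82-fold (log2 -0.86, SE 0.06, adjusted p = 2.67e-08). SRSF9 (chr12:120461668-120469793, minus strand) shares 46.2% of its exon bases with GATC on the opposite strand, which did not pass the test (log2 -0.006, adjusted p = 0.947). Whether strand was used in counting is not given, so reads of such partners cannot be told apart.

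SRSF2, a speckle protein that binds exonic enhancers, stood at 16.3, 16.7, 16.6, 16.6 and 16.8 FPKM in DMSO and at 10.8, 11.1, 10.6, 9.56 and 10.5 FPKM in HPC. It fell 1.58-fold without overlap (log2 -0.66, SE 0.04, adjusted p = 6.87e-10). MFSD11 on the opposite strand shares 36.7% of the exon bases of SRSF2 (chr17:76734115-76737374, minus strand) and stood at 0.823 ± 0.0339 FPKM in DMSO and 0.288 ± 0.0496 FPKM in HPC (SD, n = 5), below the filter. SRSF8, an expressed retrocopy related to SRSF2, was read at 7.32, 7.22, 8.14, 7.6 and 7.27 FPKM in DMSO and at 8.31, 8.53, 9.26, 8.09 and 7.39 FPKM in HPC. These groups overlapped. SRSF8 (chr11:95067197-95071224, plus strand) was called higher by 1.1-fold (log2 0.14, SE 0.05, adjusted p = 0.0226), a call that ended without DMSO replicate 2 (adjusted p = 0.0529), without DMSO replicate 5 (0.0509), without HPC replicate 3 (0.0575) and with the TPM rescaling (0.0772), and the value turned to -0.023 with the rescaling to non-mitochondrial genes.

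SRSF6 and SRSF3, which had the highest mean FPKM of the SRSF rows, changed little. SRSF6, which like SRSF4 and SRSF5 has a pair of RNA recognition motifs, stood at 30.9, 29.7, 30, 29.7 and 29.2 FPKM in DMSO and at 29.3, 29.4, 27.5, 24.8 and 26.5 FPKM in HPC. The groups overlapped, and SRSF6 was called lower by 1.09-fold (log2 -0.12, SE 0.04, adjusted p = 0.015). SRSF3, the smallest SR protein, which also serves mRNA export, stood at 27.4, 25.7, 26.5, 25.6 and 25.9 FPKM in DMSO and at 24.4, 24.1, 24.6, 23.7 and 24.3 FPKM in HPC. Its groups did not overlap, and the fall was 1.08-fold (log2 -0.11, SE 0.02, adjusted p = 6.06e-04).

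SRSF5 alone among the tested SRSF rows did not pass. It stood at 8.39, 8.5, 7.64, 7.69 and 8.03 FPKM in DMSO and at 7.82, 7.64, 7.34, 7.84 and 7.57 FPKM in HPC, with overlap (log2 -0.073, SE 0.035, adjusted p = 0.0662). The value passed with voom on the recovered counts (adjusted p = 0.034), with the TPM rescaling (0.00951), with the rescaling to non-mitochondrial genes (log2 -0.24, 1.63e-05), and without DMSO replicate 3 (0.0304) or DMSO replicate 4 (0.0376).

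The remaining SRSF rows fell. SRSF10, a splicing repressor that is activated by loss of phosphate, went from 5.61 ± 0.124 to 3.68 ± 0.164 FPKM (log2 -0.60), SRSF4 from 7.61 ± 0.205 to 5.77 ± 0.199 FPKM (log2 -0.39) and SRSF11, an SR-like protein bound to U2AF, from 8.58 ± 0.278 to 6.95 ± 0.226 FPKM (log2 -0.30; SD, n = 5 each). In these members the HPC and DMSO libraries did not overlap. SRSF7, an export adaptor with a zinc knuckle, went from 6.59 ± 0.285 to 6.04 ± 0.145 FPKM (log2 -0.12, adjusted p = 0.00328), with overlap. SRSF12, which antagonises other SR proteins, had at most 24 counts in a DMSO library and 33 in an HPC library and was not tested.

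**Figure D2:**
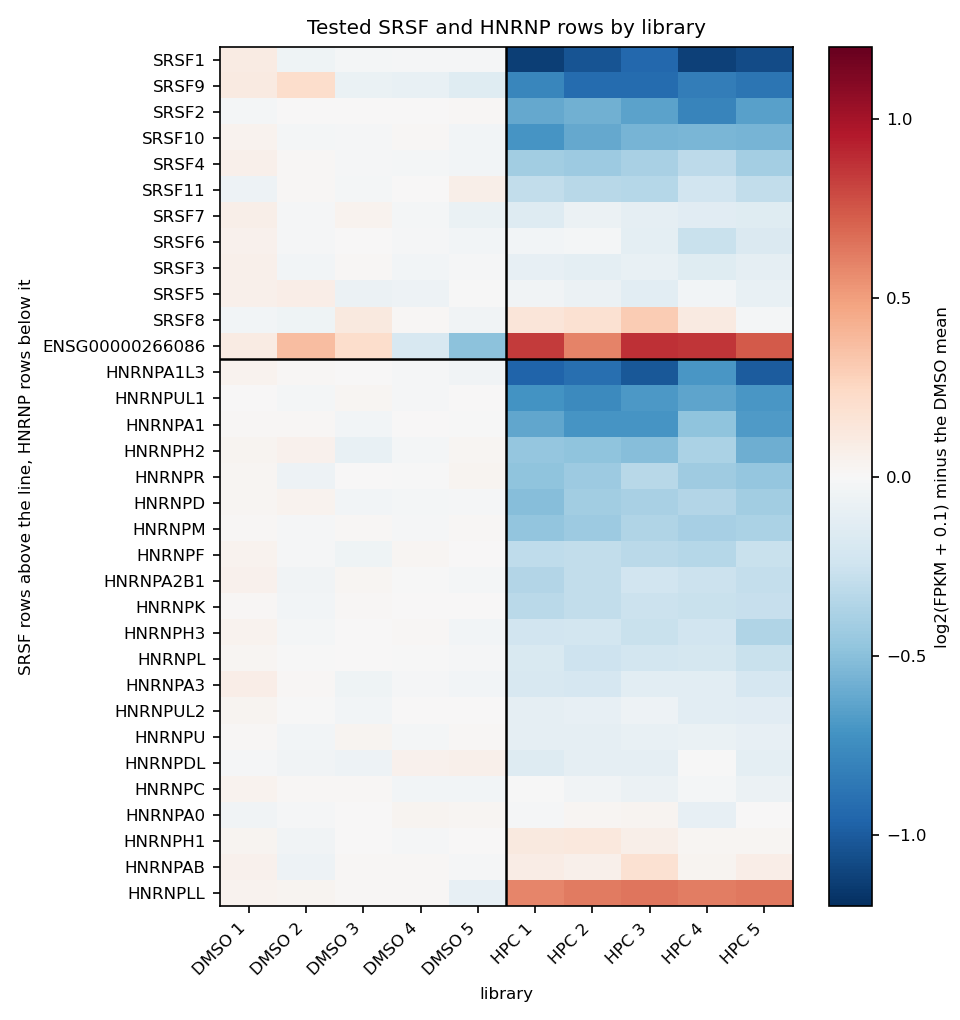
Each tested row (vertical axis) in each of the 10 libraries (horizontal axis), coloured by log2(FPKM + 0.1) minus the row's DMSO mean, with SRSF rows above the horizontal line and HNRNP rows below it. HNRNPUL2-BSCL2, which is listed at 0 in HPC replicate 2, is left out; the 5 HPC libraries share the same colour in most rows, and HNRNPLL is red in all of them.

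Among the hnRNPs, the largest called falls were in the A1 group and in HNRNPUL1. HNRNPA1, the best known splicing silencer of the family and the most abundant member, stood at 99.0, 98.9, 95.9, 98.3 and 97.5 FPKM in DMSO and at 63.5, 59.9, 60.0, 70.0 and 60.9 FPKM in HPC. No HPC library reached a DMSO library. HNRNPA1 (chr12:54280193-54287088, plus strand) fell 1.56-fold (log2 -0.64, SE 0.04, adjusted p = 2.08e-09).

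HNRNPA1L3 (chr16:51553436-51647132, plus strand), a retrogene of HNRNPA1 that GENCODE 29 names HNRNPA1P48, stood at 5.87, 5.76, 5.7, 5.63 and 5.51 FPKM in DMSO and at 2.88, 2.99, 2.76, 3.46 and 2.8 FPKM in HPC. It fell 1.89-fold without overlap (log2 -0.92, SE 0.05, adjusted p = 1.55e-09). HPC replicate 4 was the highest HPC library for HNRNPA1 and for HNRNPA1L3. Reads of a retrogene and its near-identical parent can be split or dropped by the counting, so the level of HNRNPA1L3 is uncertain. A further copy, HNRNPA1L2, ranged from 5 to 165 counts in either group and did not pass the filter.

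HNRNPUL1, a relative of HNRNPU with a role in the response to DNA damage, stood at 11.6, 11.4, 11.8, 11.5 and 11.6 FPKM in DMSO and at 6.99, 6.77, 7.15, 7.45 and 7.11 FPKM in HPC. It fell 1.62-fold without overlap (log2 -0.70, SE 0.03, adjusted p = 3.61e-11). HNRNPU (chr1:244840638-244864560, minus strand) went only from 8.93 ± 0.177 to 8.35 ± 0.0586 FPKM (log2 -0.096, adjusted p = 0.00163), and HNRNPUL2 from 29.1 ± 0.451 to 27.0 ± 0.575 FPKM (log2 -0.11, adjusted p = 5.27e-04; SD, n = 5 each). HNRNPU shares 15.6% of its exon bases with COX20 on the opposite strand. HNRNPUL2 shares 44.1% with the read-through row HNRNPUL2-BSCL2 on the same strand, and how such reads were assigned is not given.

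HNRNPK, a KH-domain protein that binds C-rich RNA and works in transcription and translation as well as splicing, fell less. It stood at 68.5, 66.1, 68.2, 67.9 and 67.8 FPKM in DMSO and at 54.0, 55.0, 56.7, 56.1 and 55.8 FPKM in HPC. The fall of 1.22-fold was larger than the spread in either group (log2 -0.29, SE 0.02, adjusted p = 1.3e-08). HNRNPH2, which binds runs of G and lies on the X chromosome (chrX:101408295-101414133, plus strand), stood at 67.6, 68.7, 62.3, 65.1 and 67.5 FPKM in DMSO and at 48.0, 47.4, 46.4, 50.8 and 44.2 FPKM in HPC. It fell 1.4-fold without overlap (log2 -0.48, SE 0.04, adjusted p = 2.82e-08). HNRNPH2 shares 16.3% of its exon bases with the row RPL36A-HNRNPH2 on the same strand.

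HNRNPLL, a relative of HNRNPL known for controlling the exons of CD45 in T cells, was the one hnRNP row with a clear rise. HNRNPLL (chr2:38561978-38603586, minus strand) stood at 3.03, 3.02, 2.96, 2.96 and 2.74 FPKM in DMSO and at 4.47, 4.57, 4.63, 4.55 and 4.6 FPKM in HPC. The groups did not overlap, and the rise was 1.54-fold (log2 0.62, SE 0.03, adjusted p = 6.36e-10). HNRNPL, which binds CA repeats, fell from 12.3 ± 0.166 to 10.5 ± 0.237 FPKM (log2 -0.23, adjusted p = 7.46e-07; SD, n = 5).

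Both other hnRNP rows called higher had overlapping groups. HNRNPAB, a DNA and RNA binding protein of the A/B group, stood at 23.5, 21.7, 22.9, 22.9 and 22.4 FPKM in DMSO and at 24.1, 23.6, 25.7, 23.2 and 24.0 FPKM in HPC (log2 0.089, SE 0.031, adjusted p = 0.0163). HNRNPH1, the paralog of HNRNPH2, stood at 9.06, 8.63, 8.92, 8.8 and 8.91 FPKM in DMSO and at 9.62, 9.69, 9.33, 8.99 and 9.02 FPKM in HPC (log2 0.073, SE 0.029, adjusted p = 0.0287). Rescaled to non-mitochondrial genes, HNRNPAB was -0.078 (adjusted p = 0.0286) and HNRNPH1 -0.093 (0.00692), so their direction rests on the scaling. With the TPM rescaling neither passed (0.117 for HNRNPAB and 0.21 for HNRNPH1), and quantile normalization ended the call of HNRNPAB (0.579). The HNRNPH1 call also ended without DMSO replicate 2 (0.0704), DMSO replicate 4 (0.056), HPC replicate 1 (0.0703) or HPC replicate 2 (0.0766).

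Rows that did not pass included HNRNPC, the U-tract binding core protein of hnRNP particles. It stood at 19.6, 19.2, 19.3, 18.6 and 18.6 FPKM in DMSO and at 19.0, 18.5, 18.1, 18.8 and 18.1 FPKM in HPC (log2 -0.042, SE 0.025, adjusted p = 0.123). HNRNPA0, which binds AU-rich elements, stood at 24.4, 24.9, 25.2, 25.7 and 25.5 FPKM in DMSO and at 24.9, 25.5, 25.7, 23.4 and 25.3 FPKM in HPC (log2 -0.012, SE 0.028, adjusted p = 0.693). The groups overlapped in each, and a p that misses the threshold does not show that the levels were equal. HNRNPC was called lower with the rescaling to non-mitochondrial genes (log2 -0.21), with TPM rescaling (-0.071) and with quantile normalization (-0.12). HNRNPA0 was called lower with the first of these (-0.18) and with quantile normalization (-0.088), and turned to 0.005 with median-ratio scaling and 0.011 without HPC replicate 4, without passing.

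HNRNPUL2-BSCL2, a row for a read-through of HNRNPUL2 into BSCL2 that shares 59.8% of its exon bases with HNRNPUL2, was erratic. It stood at 2.1, 1.68, 4.1, 0.293 and 1.43 FPKM in DMSO and at 0.8, 0, 1.11, 1.54 and 1.99 FPKM in HPC (log2 -0.95, SE 0.96, adjusted p = 0.37). Without HPC replicate 2, which is listed at 0, the value was -0.19 (adjusted p = 0.801). Its spread within groups was larger than the difference between them.

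The remaining hnRNP rows fell, with log2 fold changes from -0.43 to -0.096. HNRNPR and HNRNPD (AUF1, an AU-rich element binding protein) went from 6.52 ± 0.171 to 4.81 ± 0.2 and from 14.4 ± 0.307 to 10.8 ± 0.467 FPKM (log2 -0.43 and -0.41). HNRNPM went from 14.4 ± 0.18 to 10.8 ± 0.365 FPKM (log2 -0.41) and HNRNPF, a G-run binder, from 21.4 ± 0.529 to 17.3 ± 0.346 FPKM (log2 -0.31). HNRNPA2B1 went from 35.3 ± 0.937 to 29 ± 0.953 FPKM (log2 -0.29) and HNRNPH3 from 9.52 ± 0.208 to 7.93 ± 0.315 FPKM (log2 -0.26; SD, n = 5 each). In these 6 members, and in HNRNPA3 (55.3 ± 1.99 to 49.1 ± 1.31 FPKM, log2 -0.17), the groups did not overlap. HNRNPDL, a relative of HNRNPD, went from 10.5 ± 0.399 to 9.82 ± 0.419 FPKM with overlap (log2 -0.096, adjusted p = 0.0204). The HNRNPDL call ended without DMSO replicate 4 (0.0531), DMSO replicate 5 (0.0561) or HPC replicate 1 (0.0532). The HNRNPCL1, HNRNPCL2, HNRNPCL3 and HNRNPCL4 rows, retrocopies of HNRNPC, had at most 5 counts in any library and were not tested.

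Deposited FPKM cannot be used to order different genes. The counts show the length by which each gene was divided, and for 37 of 40 members it was within 1% of the summed length of all transcripts in GENCODE 29. This is a trait of the whole table, since the same held for 76.2% of 15183 genes, while 6.26% of those genes were within 1% of the merged exons. For HNRNPH1, with 50 annotated transcripts, that length was 53570 bases where the merged exons span 9480 bases. The ratio of those lengths ran from 1.0 to 5.75 over the members. Differences between groups within a gene do not depend on this length, apart from the filter and pseudocount.

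Levels were therefore ordered by counts per kilobase of merged exons, scaled to the library total as FPKM is. In DMSO HNRNPA1 was highest at 303 ± 3.98, followed by HNRNPK at 218 ± 3.04 and HNRNPAB at 130 ± 3.79 (SD, n = 5). HNRNPC at 109 ± 2.48, HNRNPA2B1 at 105 ± 2.78 and SRSF1 at 103 ± 4.31 were next and lay within their spread of each other. With the limit of shared exons given above, SRSF1 was the highest SR transcript by this measure in DMSO, ahead of SRSF2 at 75.5 ± 0.975 and SRSF3 at 51.2 ± 1.46. That order rests on the length, since merged exons pool all annotated transcripts (3340 bases for SRSF1, 7118 bases for SRSF3). By counts alone SRSF3 was ahead of SRSF1 in DMSO, with 17.6% against 16.5% of the SRSF counts. In HPC these 3 SR transcripts lay together, with SRSF1 at 49.1, SRSF2 at 47.8 and SRSF3 at 47.3, and HNRNPAB at 139 stood above HNRNPC at 106. HNRNPH1, low by deposited FPKM, was at 50.1 ± 0.904 in DMSO on this scale, near HNRNPU at 46.6 ± 0.922.

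**Figure D3:**
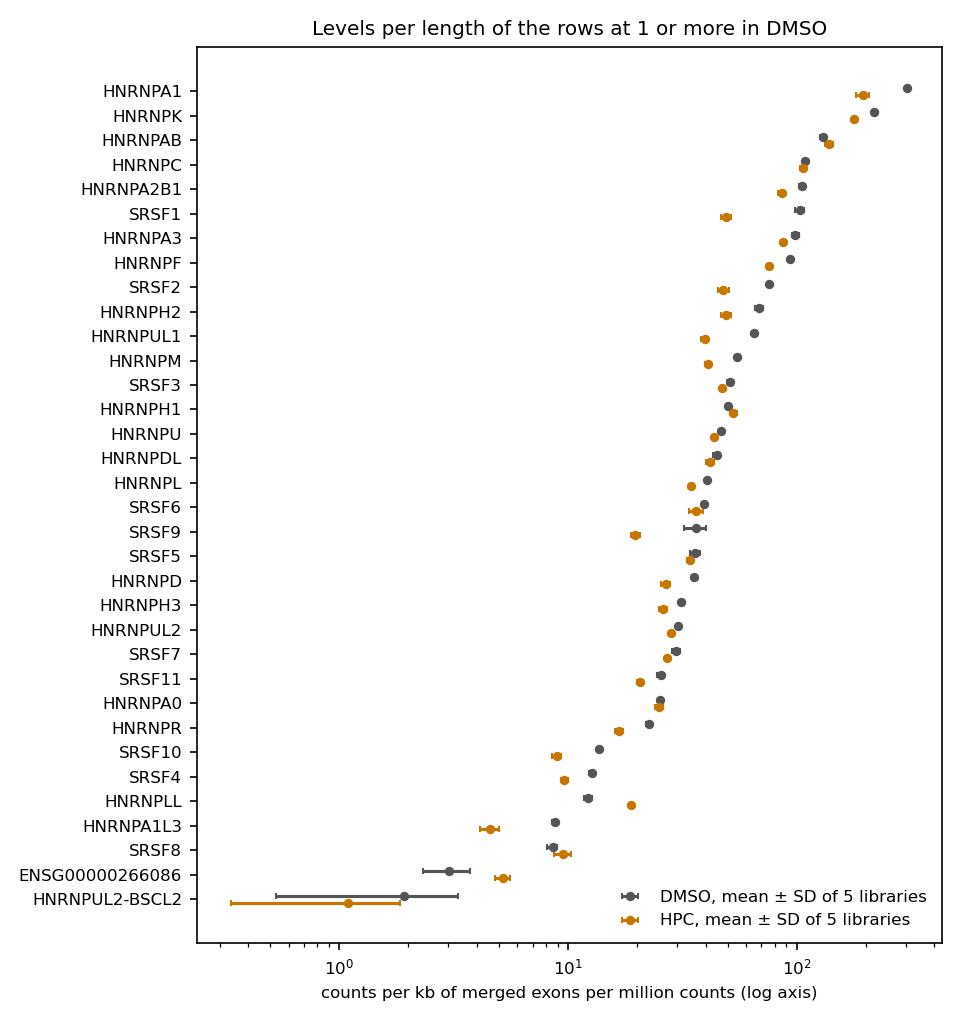
Counts per kilobase of merged exons, scaled to the library total (horizontal log axis) for the rows at 1 or more in DMSO, as mean ± SD of 5 DMSO and 5 HPC libraries. HNRNPA1 is highest in DMSO at 303 and in HPC at 194, and SRSF1 moves from 103 to 49.1, next to SRSF2 and SRSF3.

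Ratios within pairs of related genes were compared next, since a ratio inside a library does not depend on how libraries are scaled. Of 16 pairs, 15 had both genes above the filter. Each was tested with an exact two-sided permutation test over the 252 assignments of libraries, whose smallest possible p is 0.00794, with adjustment over the 15 pairs. The log2 ratio differed between HPC and DMSO in 12 pairs, each at that smallest p (adjusted p = 0.00992) and without overlap between the groups. Of all tested genes, 79.6% by themselves had groups without overlap, and the share over ratios of other gene pairs was not worked out. The 12 of 15 is therefore not read as a result about related genes, and the sizes below are given as descriptions. The ratios are of deposited FPKM, so their level depends on the lengths used. Only the change of a ratio between the groups can be read, not which gene of a pair was more abundant.

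The ratio of HNRNPL to HNRNPLL shifted most. Its log2 value was 2.016, 1.977, 2.023, 2.012 and 2.109 in DMSO replicates 1 to 5 and 1.254, 1.15, 1.16, 1.197 and 1.135 in HPC replicates 1 to 5, a fall of 0.85. The log2 ratio of SRSF2 to SRSF8 was between 1.016 and 1.202 in DMSO and between 0.19 and 0.50 in HPC, a fall of 0.80. That of HNRNPC to RALY, a small relative of HNRNPC, went from 1.28 ± 0.03 to 0.76 ± 0.03 (SD, n = 5), with RALY itself called higher (log2 0.48).

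Paralogs also parted in other groups. The log2 ratio of HNRNPU to HNRNPUL1 rose by 0.60, from -0.37 ± 0.01 to 0.23 ± 0.04 (SD, n = 5). HNRNPH1 rose against HNRNPH2 by 0.56 and against HNRNPF by 0.38. HNRNPA1 fell against HNRNPA2B1 by 0.35, and HNRNPD against HNRNPDL by 0.32. SRSF4 fell against SRSF6 by 0.27, HNRNPA2B1 against HNRNPA3 by 0.11, and HNRNPR rose against SYNCRIP (hnRNP Q) by 0.17 while each of these genes fell. The textbook antagonists SRSF1 and HNRNPA1 both fell, SRSF1 further, and their log2 ratio fell by 0.42, from -2.13 ± 0.06 to -2.55 ± 0.16 (SD, n = 5).

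In 3 pairs the ratio did not pass the test. SRSF3 to SRSF7 moved by 0.011 (p = 0.643, exact permutation) and SRSF5 to SRSF6 by 0.049 (p = 0.468, exact permutation). SRSF1 and SRSF9 fell nearly together, with a log2 ratio of 0.13 ± 0.16 in DMSO and -0.07 ± 0.13 in HPC (SD, n = 5; p = 0.0635, adjusted p = 0.0733, exact permutation). Without DMSO replicate 2, where SRSF9 was at its highest, that difference was -0.26 and passed (adjusted p = 0.0183, exact permutation), as it did without HPC replicate 3 (-0.24, adjusted p = 0.0458).

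**Figure D4:**
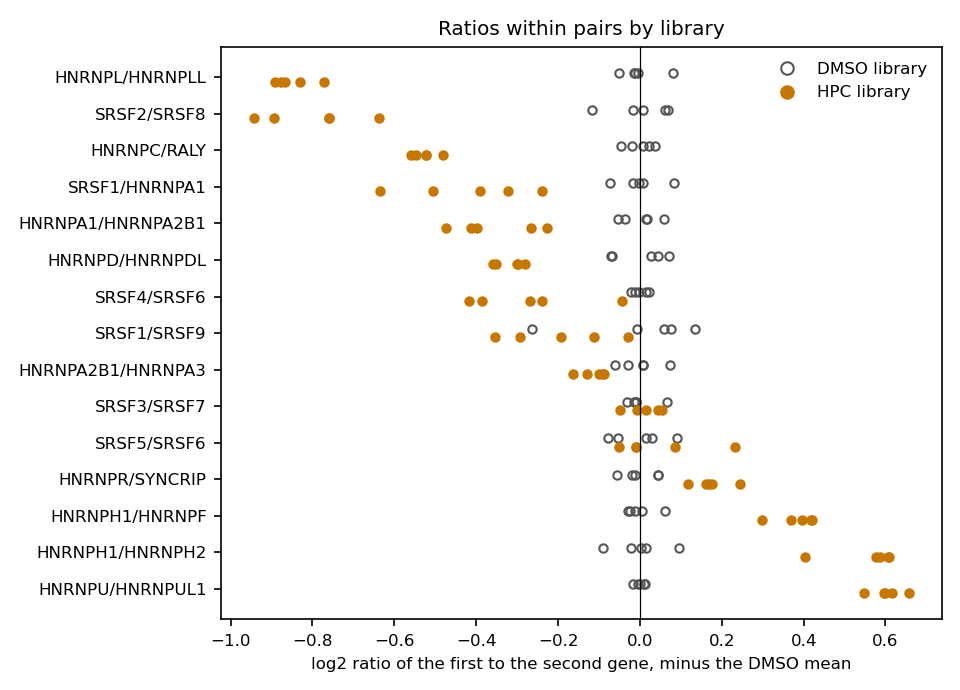
Log2 ratio of the first to the second gene of each pair, minus the DMSO mean of that pair (horizontal axis), with 1 point for each library. The HPC points of 12 pairs lie apart from the DMSO points, from HNRNPL/HNRNPLL and SRSF2/SRSF8 at the low end to HNRNPU/HNRNPUL1 at the high end; SRSF3/SRSF7, SRSF5/SRSF6 and SRSF1/SRSF9 overlap.

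Other splicing genes went in both directions. In 11 lists of related genes, 175 different rows were tested, of which 67 rose (38.3%) and 82 fell (46.9%). These pooled shares lie near the 42.9% and 44.8% of all tested genes. The single lists ranged from 20.0% lower (SF3A and SF3B complex) to 76.9% lower (U1 snRNP and Sm proteins). No list was tested against the other genes, so the counts below are descriptions. Further hnRNP proteins without the HNRNP prefix were split, with 6 higher and 7 lower of 17 and a median log2 fold change of 0.04. SYNCRIP (-0.60) and PCBP4 (-1.28) had the smallest p among the falls, and RALY (0.48) and PCBP1 (0.32) among the rises. PCBP4 (1.41 FPKM in DMSO, 0.522 FPKM in HPC) passed the filter only through DMSO, so it could enter only as a fall. SR-related splicing proteins were split as well, 13 higher and 13 lower of 31, with THRAP3 (-1.03) and RSRC1 (-1.32) lower and ZRSR2 (0.63) and PNN (0.60) higher.

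The kinases, phosphatases and import factors of SR proteins had 6 higher and 8 lower of 17, with the phosphatase subunit PPP1CC (-0.87) and AKT1 (-0.73) lower and CDK13 (0.48) and TNPO3 (0.38), which imports SR proteins into the nucleus, higher. The list of arginine methyltransferases, which modify hnRNP proteins, and their partners had 4 higher and 4 lower of 9. The methyltransferases PRMT5 (0.76) and PRMT3 (0.64) were higher, with WDR77 (0.39), a partner of PRMT5 that is no methyltransferase itself, and JMJD6 (0.76), listed as a demethylase. The lower genes were the methyltransferases PRMT6 (-0.59), CARM1 (-0.21), PRMT2 (-0.26) and PRMT9 (-0.30). Nonsense-mediated decay factors had 6 higher and 5 lower of 13, with DHX34 (0.89) and SMG1 (0.60) higher and UPF1 (-0.25) and UPF2 (-0.20) lower.

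Of the core spliceosome, the U1 and Sm list had a share of falls near that of the SRSF and HNRNP rows, 10 of 13 (76.9%) lower and 2 higher, with a median of -0.28. SNRPD3 (-0.78) and SNRPE (-0.72) were lower, and SNRPA1 (0.47) and SNRPB2 (0.24), both of the U2 particle, were higher. The SF3A and SF3B complex had 5 higher and 2 lower of 10, with SF3B2 (0.36) and SF3B5 (0.52) higher and SF3B3 (-0.81) and SF3B1 (-0.46) lower. The tri-snRNP and PRP19 proteins had 11 higher and 14 lower of 26, with PLRG1 (0.64) and BCAS2 (0.88) higher and SNRNP200 (-0.42) and DHX15 (-0.50) lower. No test compared these lists with the SRSF and HNRNP rows.

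Exon junction and export factors had 10 higher and 8 lower of 19, with MAGOH (0.84) and NXF1 (0.71) higher and THOC3 (-0.73) and DDX39B (-0.74) lower. The list named tissue-restricted regulators had 2 higher and 6 lower of 11, with the lowest median of the lists, -0.47. Only these 11 of its 25 rows in the table passed the filter, so the name need not describe the members tested. Of them, MBNL1 (2.01 FPKM in DMSO, 0.798 FPKM in HPC) and RBM47 (1.34 and 0.225 FPKM) passed only through DMSO. They could thus enter only as falls, and the counts and median rest partly on the filter. Rows under the filter went both ways from DMSO to HPC and were not tested, such as RBM24 (0.527 to 0.817 FPKM) and NOVA2 (0.902 to 0.184 FPKM). KHDRBS1 (-0.77, at 51.9 FPKM in DMSO) and MBNL1 (-1.24) were lower and MBNL2 (0.87) and RBM38 (0.59) higher. Minor spliceosome and paraspeckle proteins had 2 higher and 5 lower of 10, with NONO (-1.18) and SNRNP25 (-1.35) lower and DAZAP1 (0.79) and SFPQ (0.22) higher.

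**Figure D5:**
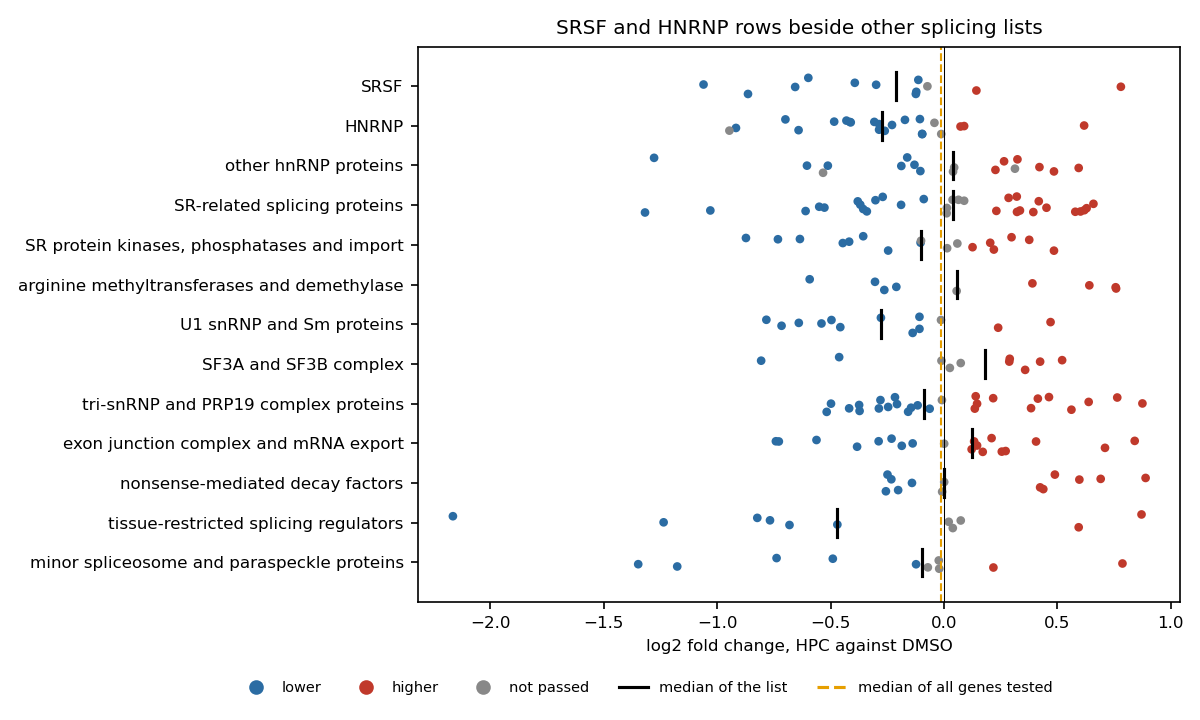
Log2 fold change, HPC against DMSO (horizontal axis), of each tested row of the SRSF and HNRNP families and of 11 lists of other splicing genes, coloured by call, with a black bar at the median of each list. The medians are -0.21 for SRSF, -0.27 for HNRNP, -0.28 for U1 snRNP and Sm proteins and -0.47, the lowest, for tissue-restricted splicing regulators. In that last list MBNL1 and RBM47 passed the filter only through DMSO. The dashed line is the median of all tested genes at -0.014.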

How the data were processed

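The authors deposited 1 table of FPKM for 16734 rows and 10 libraries. Per the labels' protocols, poly(A) RNA was sequenced as paired-end reads. Tools listed in the submitters' processing notes are STAR 2.7.7a, fastp 0.23.2 and edgeR, beside the build GRCh38.p13. For the counter, its use of strand and the annotation, the answer is not given in the sources used here. Rows without a symbol (344) were named from the reference by ID. All 15208 genes above 0 in at least 3 libraries had FPKM values that were whole multiples of 1 count, within 0.0001, which gave the recovered counts. Pairs of libraries within a group differed by 13.2 to 32 times counting noise (chi-square per degree of freedom, 20 pairs), so none was taken for a copy of another.

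Groups were compared, for genes at 1 FPKM or more in 5 or more libraries, by limma 3.58.1 (R 4.3.3; eBayes with a robust trend; two-sided) on log2(FPKM + 0.1), which understates the change of low genes. Values per library were given for the 3 largest rises and falls among the called members of each family, the 3 most abundant by mean FPKM and all that missed the threshold, and from each related list the 2 smallest p in each direction were named. The members, lists, pairs and motifs were chosen with earlier results of these data known. Equal replicate numbers were not taken as pairs, since the labels give no shared batch. Gene models came from GENCODE 29 and promoters from RefSeq. The fit and the recovery of counts were tested on simulated data. Alternatives changed pseudocount, filter, scaling, variance model, weights, block and libraries, and voom was run on the recovered counts. Merged-exon lengths, a filter of 100 counts and shares of counts were added after seeing the data. Python 3.11.15 with NumPy 2.4.6, pandas 2.3.3 and matplotlib 3.10.9 was used.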

Additional observations from a re-analysis of the deposited data

Results flagged for a closer look

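In 68 groups of 5 libraries (34 tested rows in each condition), 2 held a value far from the other 4 by Dixon's test at 95%, which chance gives in about 1 of 20 groups. HNRNPLL was at 2.74 FPKM in DMSO replicate 5, where the other DMSO libraries lay between 2.96 and 3.03 FPKM. HNRNPK was at 66.1 FPKM in DMSO replicate 2, where the others lay between 67.8 and 68.5 FPKM. Both values remained on the DMSO side of every HPC library.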

How the results depend on the processing

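Over 25 alternative settings, 27 of 34 tested members kept direction and call in every setting in which they were tested, and 812 of 847 member values did so. With the rescaling to non-mitochondrial genes, 1 SRSF row and 1 HNRNP row were higher, the SRSF median was -0.38, the HNRNP median was -0.44, the difference in share of FPKM was -0.0499 percentage points for SRSF and -0.156 for HNRNP (-0.0295 and -0.0893 as deposited), and SRSF8 (-0.023), HNRNPH1 (-0.093) and HNRNPAB (-0.078) turned negative. The same scaling with a replicate block gave the same 1 and 1, -0.38, -0.44, -0.023, -0.093 and -0.078. The TPM rescaling gave 1 SRSF row and 1 HNRNP row higher and medians of -0.24 and -0.32, and quantile normalization gave medians of -0.26 and -0.36. With median-ratio scaling HNRNPA0 was 0.005. Without a filter the medians were -0.12 and -0.23, with low rows included. A filter of 5 FPKM, which tests fewer genes, gave 1969 genes higher and 1836 lower (3922 and 4099 in all), 1 SRSF row higher, an SRSF median of -0.30 and 54 related splicing genes lower. As a share of recovered counts the differences were -0.0494 for SRSF and -0.157 for HNRNP. Leaving out 1 library gave 1 to 2 SRSF rows higher, an HNRNP median of -0.28 to -0.25, and 0.011 for HNRNPA0.

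Deviations from the group means correlated at -0.0593 to 0.199 between same-numbered libraries and at -0.203 to 0.145 between libraries of different number. These ranges overlap, and whether same-numbered libraries pair was not tested. With the replicate block in limma the families had 2 SRSF rows higher and 9 lower and 3 HNRNP rows higher and 16 lower, as without it. With the block, 0 of 15 pair ratios passed, since the smallest p of that exact sign-flip permutation test is 0.0625. Every tested member except HNRNPUL2-BSCL2 had at least 338 counts in each DMSO library and 544 in each HPC library.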
